A study of Mus musculus with 6 samples.

Results

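The integrated stress response gene set examined here consists of 10 listed genes, *Atf4*, *Ddit3*, *Atf3*, *Trib3*, *Chac1*, *Sesn2*, *Asns*, *Psat1*, *Phgdh* and *Shmt2*. They were found by gene symbol among 47643 Ensembl gene IDs, and all 10 were among the 15792 genes tested. Mouse submandibular salivary gland organoids (mSGOs), which grow in Matrigel from dissociated adult gland cells, were sampled from the same 3 mice at day 5 and again at day 7, giving 6 libraries, 3 per day. All groups were C57BL/6 mice of 8-12 weeks, non-irradiated and otherwise untreated, and all organoids grew in WRY medium, which holds EGF, FGF2, N2, insulin, dexamethasone, the kinase inhibitor Y27632, and conditioned medium with R-spondin1 and Wnt3a. The comparison between the days asks which transcripts differ as the organoids form.

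When amino acids run short or unfolded proteins accumulate, the kinases GCN2 and PERK phosphorylate the translation factor eIF2. General translation then slows, while the mRNA of *Atf4* is translated more. The ATF4 protein enters the nucleus and, with partner bZIP proteins, activates genes for amino acid synthesis and transport, for redox balance and, under lasting stress, for cell death. Part of the control of ATF4 is therefore exerted on translation, which a count of transcripts does not measure.

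RNA was read with a 3′ end kit (Lexogen QuantSeq), so that each counted read marks a transcript end. Levels are given as CPM, counts scaled to 1000000 per library, and are not divided by gene length, so they are compared between days and not between genes. The libraries held 1918198 to 2837397 counts in genes, and a count of 0 allows up to 3 counts, which is 1.04 to 1.51 CPM. The spread between mice was larger on day 7 (biological coefficient of variation 0.292) than on day 5 (0.0900), and one estimate of spread served both days. All 7 markers of epithelium and duct were detected, with a summed level of 14327 to 18115 CPM at day 5 and 11415 to 15808 CPM at day 7, and 1 of them (*Krt8*) was lower. The sum of the cycling cell markers *Mki67* and *Top2a* was 968 to 1126 CPM at day 5 and 367 to 573 CPM at day 7, and both were lower. Markers of macrophages summed to 8.03 to 10.7 CPM and 9.30 to 13.9 CPM with *Adgre1*, *Csf1r* and *Lyz2* at 0 and 1 of 6 (*Cd68*) higher. Of the fibroblast markers 3 of 6 were detected and *Col1a2*, *Col3a1* and *Lum* were at 0. Their sum was 0.36 to 0.50 CPM at day 5 and 1.04 to 1.96 CPM at day 7, without overlap and with no single marker past the threshold. No fibroblast marker had more than 1 count in a day 5 library or more than 4 in a day 7 library. The sums thus lie below or near the floor and do not show a difference. Of the endothelial markers 3 of 5 were detected (*Cdh5* and *Tek* at 0), with a sum of 0 to 1.00 CPM at day 5 and 0 to 0.77 CPM at day 7. *Hba-a1*, *Hbb-bs* and *Alas2* of erythroid cells were at 0, and the fourth marker had a sum of at most 0.49 CPM, at day 7. The part of such cells in the results below was not tested.

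ATF4 binds with C/EBP partners to a composite element. Promoter windows that match its letters are shown because they separate the members into those with and without a match. The letters TGATGNAAN were searched on both strands, from 500 bases before to 100 bases after the start of the canonical transcript (GRCm39, GENCODE vM39), and no other motif was searched. A match was present for 5 of the 10 members (50.0%) and for 1675 of 21770 protein-coding promoters (7.69%). The members were listed as ATF4 and amino acid stress genes, so the difference between these shares is not a test. Each window has 30 bases on the strand of the gene, with the match in capitals:
*Ddit3*, 200 bases before the start, chr10:127126350-127126379 (+): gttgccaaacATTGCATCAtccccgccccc
*Chac1*, 160 bases before the start, chr2:119181519-119181548 (+): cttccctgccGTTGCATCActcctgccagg
*Sesn2*, 257 bases before the start, chr4:132238053-132238082 (-): gtgaagtcccGTTTCATCAcgcagccctaa
*Trib3*, at base 46 from the start, chr2:152185948-152185977 (-): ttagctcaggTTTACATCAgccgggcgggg
*Atf3*, 104 bases before the start, chr1:190915622-190915651 (-): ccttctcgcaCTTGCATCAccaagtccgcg
*Atf3*, at base 68 from the start, chr1:190915451-190915480 (-): ttaaaaggggTGATGCAACgcgctcccagc

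Most of the matches read as the reverse strand of the motif. The free base between the fixed letters was the same in *Ddit3*, *Chac1* and the matches of *Atf3*, and differed in *Sesn2* and *Trib3*. The windows of *Atf4*, *Asns*, *Psat1*, *Phgdh* and *Shmt2* held no match to these letters. A match is a description of the sequence and does not show binding. An element outside the searched stretch, or with other letters, would be missed, so no match does not mean no element.

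The transcription factor *Atf4*, its target *Ddit3*, which encodes the death-related factor CHOP, and the effectors *Trib3*, *Chac1* and *Sesn2* were higher at day 7, by 2.70 to 6.94 times. None of the 4 enzymes of amino acid synthesis was higher, and *Phgdh*, the first enzyme of serine synthesis, was 2.96 times lower. Of the 10 members, 5 passed the threshold as higher, where 7.22% of all genes tested did, and 1 passed as lower, where 4.82% did. In either direction this was 6 of 10 members against 12.0% of all genes (1901 of 15792). All genes include those with very few counts, and the share among genes of a like level was not computed. The median log2 fold change was 0.64 over the members and -0.01 over all genes tested.

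**Figure D1:**
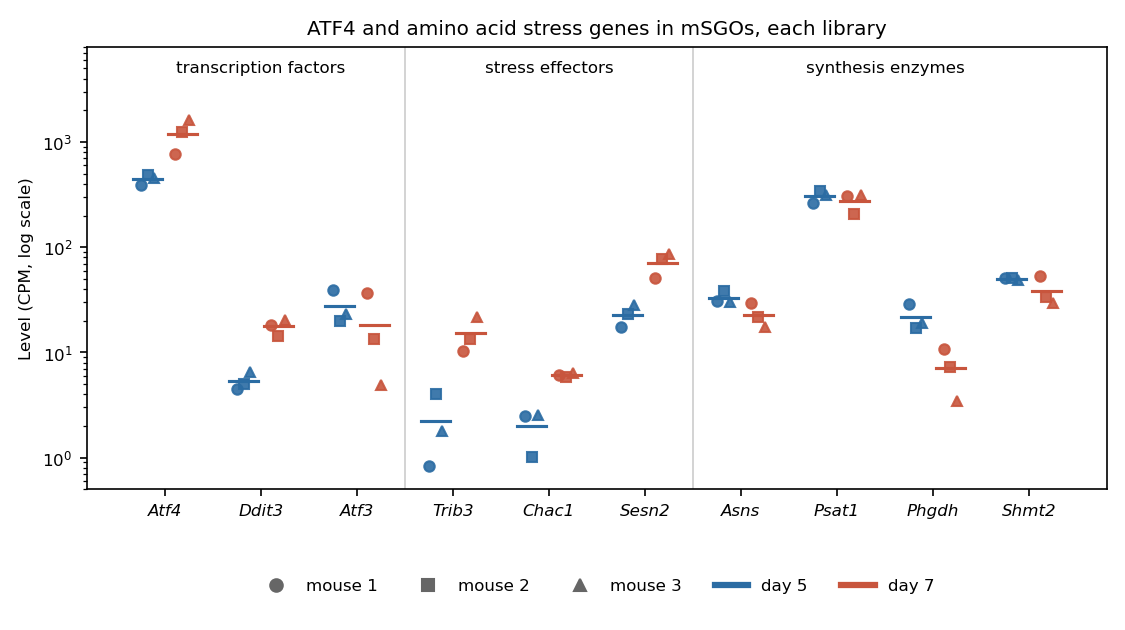
Level of each member in CPM on a log axis, in each of the 6 libraries. Points are mice (circle, mouse 1; square, mouse 2; triangle, mouse 3), horizontal lines are means of 3, blue is day 5 and red is day 7. For *Atf4*, *Ddit3*, *Trib3*, *Chac1* and *Sesn2* all red points lie above all blue points, and for *Asns* and *Phgdh* they lie below.

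*Atf4* (chr15:80139372-80141745, + strand, GRCm39) had 393, 490 and 456 CPM in mice 1, 2 and 3 at day 5, and 777, 1232 and 1604 CPM at day 7. Every day 7 library lay above every day 5 library, and mouse 1 was the lowest on both days. The level was 446 ± 49.5 CPM (SD, n = 3) at day 5 and 1204 ± 414 CPM at day 7. The log2 fold change was 1.43 ± 0.23 (SE), with an adjusted p of 0.0005 by edgeR's quasi-likelihood test. In bulk libraries, a change in the share of cells that express a gene and a change in its RNA per cell cannot be told apart.

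*Ddit3* (chr10:127124268-127132163, +) had 4.54, 5.02 and 6.49 CPM at day 5 and 18.4, 14.2 and 20.6 CPM at day 7. The days did not overlap, on 10 to 18 counts per library at day 5 and 41 to 48 at day 7. On the log2 scale *Ddit3* was higher by 1.70 ± 0.32 (adjusted p = 0.0018). The last 500 bases of *Ddit3* lie within *Mars1*, a tRNA synthetase gene on the opposite strand, and whether strand was used in counting is not stated. A second gene named *Ddit3* in the annotation used here for names overlaps the counted one on the same strand. It is not among the gene IDs of the counts. *Mars1* itself had a log2 fold change of -0.44 (adjusted p = 0.221). 

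*Atf3*, a stress-induced bZIP factor that acts with and downstream of ATF4 (chr1:190902493-190950241, -), had 39.2, 20.1 and 23.1 CPM at day 5 and 36.8, 13.5 and 4.90 CPM at day 7. The day 7 libraries spread over 7.52 times from lowest to highest, and mouse 1 stayed near its day 5 level while mouse 3 was far below it. Its log2 fold change was -0.55 ± 0.44 (adjusted p = 0.455, 95% interval -1.48 to 0.37). With the mouse as a block it was -0.78 with an adjusted p of 0.04998, and without the day 7 library of mouse 1 it was -1.51 with an adjusted p of 0.0082. *Atf3*, with 2 matches to the motif, was the only one of the 5 members with a match that was not higher at day 7.

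The stress effectors all rose. *Trib3*, a pseudokinase that binds ATF4 and AKT (chr2:152179337-152191958, -), had 0.82, 4.02 and 1.80 CPM at day 5 and 10.4, 13.5 and 21.5 CPM at day 7. The day 5 values rest on 2, 8 and 5 counts, close to the floor, and the day 7 values on 27, 39 and 44. Its log2 fold change of 2.79 ± 0.47 (adjusted p = 0.0006) was the largest among the members. Without the day 5 library of mouse 2, the highest of that day, it was 3.44, and over all fits without 1 library it ranged from 2.40 to 3.44.

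*Sesn2*, a leucine sensor that restrains mTORC1 (chr4:132219335-132237815, -), had 17.3, 23.1 and 28.1 CPM at day 5 and 50.6, 77.4 and 86.2 CPM at day 7. The order of the mice was the same on both days, and the days did not overlap. This was a log2 fold change of 1.64 ± 0.26 (adjusted p = 0.0004).

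*Chac1*, which degrades glutathione (chr2:119180757-119184866, +), had 2.47, 1.00 and 2.52 CPM at day 5 and 6.14, 5.90 and 6.36 CPM at day 7. The days did not overlap, but the values rest on 2 to 7 counts at day 5 and 13 to 17 at day 7. *Chac1* was higher by 1.55 ± 0.47 on the log2 scale (adjusted p = 0.0373). This call was the least stable of the 6. It did not pass with DESeq2 (adjusted p = 0.136), when tested against the minimum fold itself with glmTreat (0.148), or without any day 5 library (0.0999, 0.169 and 0.102 without mice 1, 2 and 3) or without the day 7 library of mouse 2 (0.0919).

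**Figure D2:**
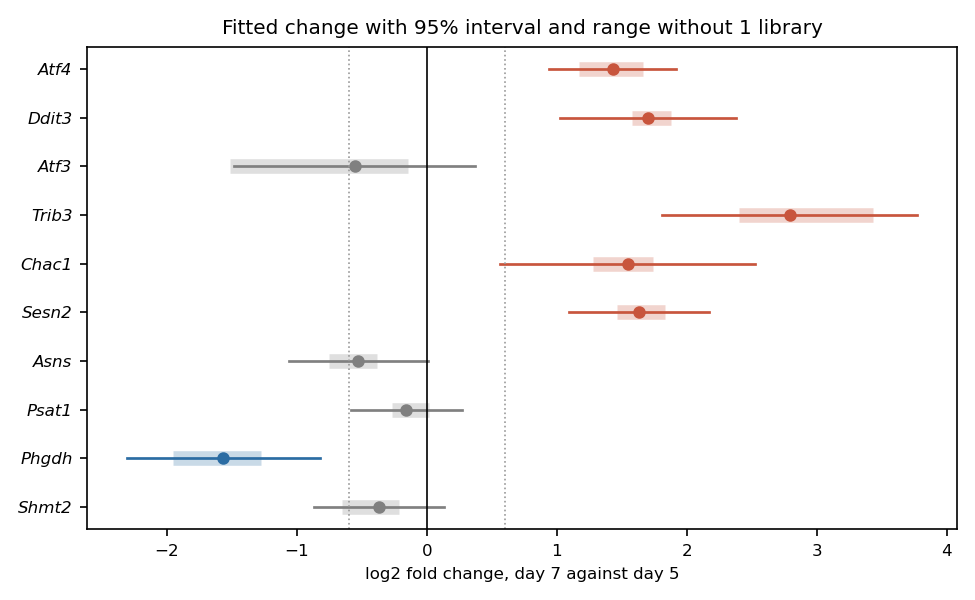
Fitted log2 fold change of each member, day 7 against day 5. Points are estimates, thin lines are 95% intervals, broad pale bars are the range of the estimate when 1 library is left out, and dotted lines mark the minimum of 0.6 in either direction; red is higher, blue is lower and grey is not past the threshold. The intervals of *Atf3*, *Asns*, *Psat1* and *Shmt2* include 0.

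The 4 synthesis enzymes all had negative estimates. *Phgdh* (chr3:98220484-98255047, -) had 28.9, 17.1 and 19.1 CPM at day 5 and 10.7, 7.29 and 3.43 CPM at day 7. All day 7 libraries lay below all day 5 libraries, and mouse 1 was the highest on both days. Its estimate was -1.57 ± 0.35 on the log2 scale (adjusted p = 0.0066), and without the day 5 library of mouse 1 it was -1.31 and no longer past the threshold (adjusted p = 0.0755). The 3′ end of *Phgdh* matches 7 processed pseudogenes over 277 to 367 bases, and the 4 of these that the files list had no counts.

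*Asns*, which makes asparagine from aspartate (chr6:7671667-7728461, -), had 30.9, 38.7 and 30.3 CPM at day 5 and 29.5, 21.5 and 17.6 CPM at day 7. The days did not overlap, although mouse 1 of day 7 lay only just below the day 5 range. The log2 fold change was -0.53 ± 0.25 and did not pass the threshold (adjusted p = 0.199, 95% interval -1.06 to 0.01). The interval holds no increase of the size seen for *Atf4*.

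*Psat1*, the second enzyme of serine synthesis (chr19:15882039-15924701, -), had 262, 344 and 316 CPM at day 5 and 309, 207 and 311 CPM at day 7, and the days overlapped. Its log2 fold change was -0.16 ± 0.20 (adjusted p = 0.680, interval -0.58 to 0.27). *Shmt2*, which moves a one-carbon unit from serine in the mitochondrion (chr10:127352266-127358323, -), had 51.1, 50.7 and 48.6 CPM at day 5 and 52.9, 34.0 and 29.4 CPM at day 7. At day 7 mouse 1 was above the day 5 range and the other two mice below it. Its estimate was -0.37 ± 0.24 (adjusted p = 0.353, interval -0.86 to 0.13). An exon of *Shmt2* overlaps *Ndufa4l2* on the opposite strand, whose counts were 0, 0 and 2 at day 5 and 94, 27 and 15 at day 7.

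Between all libraries, 5 members had every day 7 value above every day 5 value, which held for 15.4% of all genes tested, and 2 (*Asns* and *Phgdh*) had every value below, which held for 15.5%. Within each mouse, *Atf4*, *Ddit3*, *Trib3*, *Chac1* and *Sesn2* were higher at day 7 in 3 of 3 mice, and *Phgdh*, *Asns* and *Atf3* lower in 3 of 3. For all of these but *Atf3* this follows from the lack of overlap between the days. The share of all genes tested with the same sign in 3 of 3 mice was not computed. The within-mouse log2 ratio of *Atf4* was 0.98, 1.33 and 1.81 in mice 1, 2 and 3, and that of *Atf3* was -0.09, -0.55 and -2.13. Mouse 1 had the smallest change in both genes and mouse 3 the largest. The other members that rose did not share this order: the largest change was in mouse 1 for *Ddit3*, mouse 2 for *Chac1* and *Sesn2*, and mouse 3 for *Trib3*. For *Trib3* the smallest was in mouse 2. At day 7, mouse 1 held the highest level of 4 members (*Asns*, *Atf3*, *Phgdh*, *Shmt2*) and the lowest of 3 (*Atf4*, *Trib3*, *Sesn2*). Mouse 3 held the highest level of 6 members and the lowest of 4, so that it was at one end in all 10. Over all genes tested whose libraries did not tie, mouse 3 was the highest in 39.8% and the lowest in 38.3%, and mouse 1 in 32.1% and 34.3%.

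**Figure D3:**
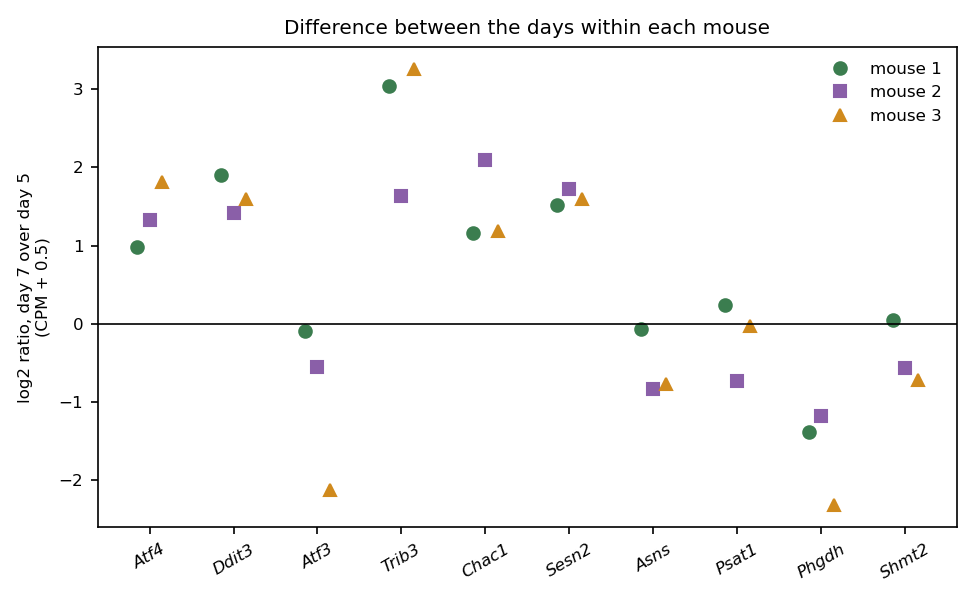
Log2 ratio of day 7 over day 5 within each mouse for the 10 members, with 0.5 CPM added to both levels. Each point is 1 mouse and the line at 0 is no difference. *Atf4*, *Ddit3*, *Trib3*, *Chac1* and *Sesn2* lie above 0 in all mice, and *Atf3* spreads from -0.09 to -2.13.

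Genes around the pathway were described with 8 lists of 131 genes, of which 129 were tested (*Bcat1* and *Slc43a1* were not). Of these, 18 were higher and 9 lower, 27 of 129 in all, beside 12.0% of all genes. The list of other stress effectors held 9 of the 18 rises with a median log2 fold change of 0.78, and no other list had more than 3. Whether ATF4 acts on the genes of these lists in the organoids was not tested.

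Upstream, none of the 4 eIF2 kinases passed the threshold. *Eif2ak4*, which encodes GCN2, had 19.1 ± 3.60 CPM at day 5 and 14.3 ± 1.62 at day 7 (log2 fold change -0.41, adjusted p = 0.366). These values rest on 136 counts at day 5 and 109 at day 7. The 3′ end of *Eif2ak4* shares 235 bases with *Srp14* on the opposite strand, which had 760 and 931 counts (0.19, adjusted p = 0.605). *Eif2ak3*, which encodes PERK, had 11.3 ± 2.05 and 13.2 ± 0.96 CPM (0.22, adjusted p = 0.681), and *Eif2ak1* and *Eif2ak2* had -0.11 and 0.60. Of the 16 genes that set or read eIF2 phosphorylation, 2 were higher and 1 lower. *Ppp1r15b*, the constant subunit of the eIF2 phosphatase, was higher by 0.69 on the log2 scale, and *Ppp1r15a*, its stress-induced counterpart, had 0.43 (adjusted p = 0.470). *Eif2b2* was higher (0.87) and *Eif2b1*, another subunit of the exchange factor eIF2B, was lower (-1.01). The 3′ end of *Eif2b1* lies in *Ddx55*, which was lower as well (-0.89, adjusted p = 0.0362).

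Among 9 bZIP partners and stress transcription factors, 3 were higher, none was lower, and the median was 0.65. *Atf5*, a close relative of ATF4 that is also controlled by translation, had 31.4, 30.1 and 27.02 CPM at day 5 and 44.1, 86.1 and 142 CPM at day 7 (1.62 ± 0.31, adjusted p = 0.0021). Its mice at day 7 stood in the order seen for *Atf4*. *Cebpb* was higher by 0.82 and *Jdp2* by 1.11, while *Cebpg* (0.37) and *Nupr1* (0.54) did not pass.

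Serine, glycine and folate enzymes were mixed, with 2 of 18 higher, 3 lower and a median of -0.36. The lower ones included *Tyms* (-1.65 ± 0.25, adjusted p = 0.0003) and *Mthfd1* (-0.88). *Tyms* makes thymidylate, and the cycling cell markers were lower at day 7 as well; their part in the result was not tested. *Psph*, the last enzyme of serine synthesis, had -0.21 (adjusted p = 0.589), and *Mthfd2*, a mitochondrial folate enzyme, had 0.11 (adjusted p = 0.799). *Aldh1l2*, which oxidises formyl-folate in the mitochondrion and whose 3′ end lies in *Nopchap1*, was higher by 1.58, and by 0.94 without the day 7 library of mouse 1 (adjusted p = 0.0583). *Cbs*, of the transsulfuration pathway, had no counts at day 5 and 7, 14 and 8 at day 7. Against a floor of 3 counts over the day 5 group this was 9.23-fold higher, and the counting error of day 7 is not included.

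Among the 15 other amino acid synthesis genes tested, *Glul* alone passed. This gene, for glutamine synthetase, had 138, 139 and 150 CPM at day 5 and 241, 462 and 476 CPM at day 7 (1.47 ± 0.23, adjusted p = 0.0004). The last 500 bases of *Glul* match the processed pseudogene *Glns-ps1* at 98.0% identity, which had no counts. *Aldh18a1* (-0.30) and *Pycr1* (0.36), of proline synthesis, did not pass.

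Of 17 amino acid transporters tested, none was higher and 2 were lower. *Slc7a11*, the cystine importer, had 351, 384 and 307 CPM at day 5 and 143, 60.1 and 47.0 CPM at day 7. Every day 7 library was far below every day 5 library, and mouse 1 was the highest at day 7. The log2 fold change was -2.06 ± 0.30 (adjusted p = 0.0002), and without the day 7 library of mouse 1 it was -2.69. *Slc1a5*, a neutral amino acid transporter, was lower too (-1.31), whereas *Slc7a5* (0.58, adjusted p = 0.239) and its partner *Slc3a2* (0.30, adjusted p = 0.366) did not pass. Of 20 cytosolic tRNA synthetases, 2 were lower, *Hars1* (-0.89) and *Aars1* (-0.78), none was higher, and the median was -0.25. The 3′ end of *Aars1* lies in *Exosc6*, which is not among the gene IDs of the counts.

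The other stress effectors were the list with most calls, 9 of 18 higher and none lower. They were *Vldlr* (1.52), *Atg12* (1.31), *Gdf15* (1.28), *Sesn1* (1.16), *Pmaip1* (1.13), *Sesn3* (0.90), *Map1lc3b* (0.79), *Niban1* (0.78) and *Stc2*, and those beyond the naming rule were named after their values were seen. *Atg12* and *Map1lc3b*, whose 3′ end matches pseudogenes that had no counts, act in autophagy, *Pmaip1* encodes the death protein NOXA, and *Sesn1* and *Sesn3* are relatives of *Sesn2*. *Stc2* had no counts at day 5 and 7, 6 and 0 at day 7, 4.14-fold higher against the same floor and with the same limit. With the mouse as a block *Stc2* did not pass (adjusted p = 0.0777). *Ddit4*, an mTORC1 inhibitor, had 165 ± 3.80 and 166 ± 27.5 CPM (0.01, 95% interval -0.39 to 0.40).

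ER chaperones, which the ATF6 and XBP1 arms of the unfolded protein response control, had 1 gene higher and 1 lower of 16, with a median of -0.15. *Hspa5*, the main ER chaperone, had 765 ± 43.5 CPM at day 5 and 775 ± 156 at day 7 (0.02, interval -0.39 to 0.42), and its last 500 bases lie in *Rabepk* (-0.55, adjusted p = 0.189). *Ero1a*, an ER oxidase, had 42.5, 48.2 and 62.3 CPM at day 5 and 334, 223 and 186 CPM at day 7 (2.28 ± 0.24, adjusted p = 6.7e-06). *Dnajb11* was lower (-0.82). Of the pathway genes named here, *Atf5*, *Tyms*, *Cbs*, *Glul*, *Slc7a11*, *Slc1a5*, *Vldlr*, *Atg12* and *Ero1a* passed without any 1 of the 6 libraries, and *Sesn3* and *Pmaip1* in 5 of 6 such fits. The other called genes named here passed in 1 to 4 of them.

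**Figure D4:**
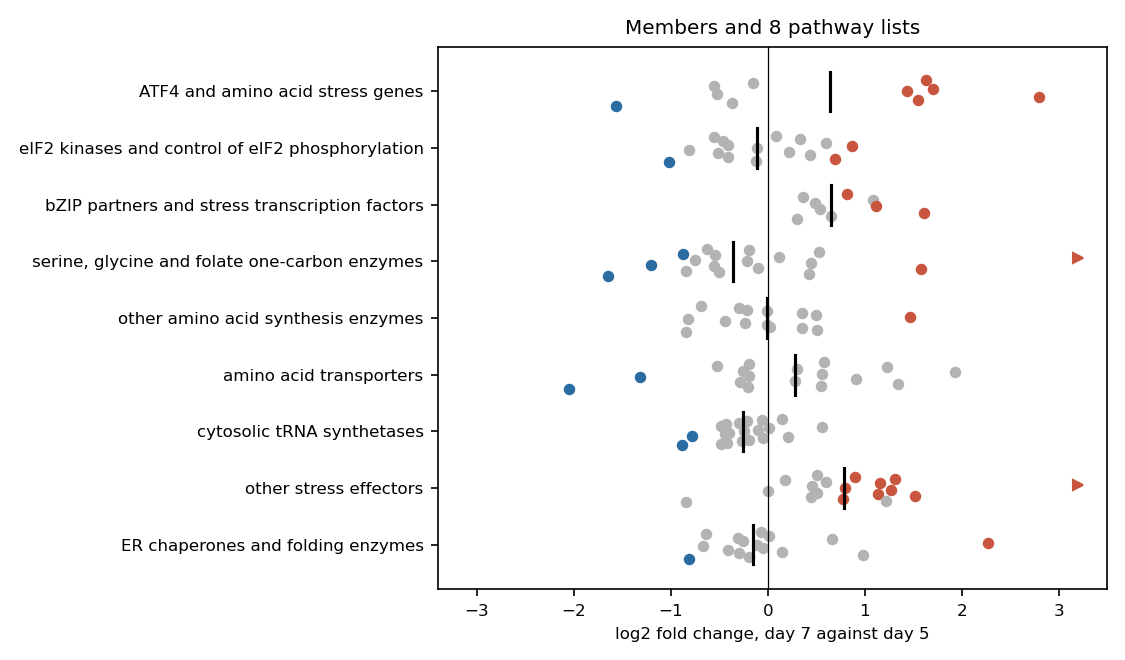
Log2 fold change, day 7 against day 5, of the 10 members (top) and of the genes tested in each of 8 pathway lists. Each point is a gene, red is higher and blue lower past the threshold, grey is not past it, black bars are medians, and arrowheads mark *Cbs* and *Stc2*, which had no day 5 counts. Most red points outside the members lie in the list of other stress effectors.

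The presence of a match in the searched stretch was set beside the calls. Of the 5 members with a match, 4 were higher (*Ddit3*, *Trib3*, *Chac1*, *Sesn2*) and none lower, with a median log2 fold change of 1.64, and of the 5 without, 1 was higher and 1 lower, with a median of -0.37. In the pathway lists, 18 genes had a match, and 3 of them were higher (*Ppp1r15b*, *Jdp2*, *Vldlr*) and 2 lower (*Slc7a11*, *Aars1*). Of the 113 without, 111 were tested, and 15 of these were higher and 7 lower. The medians there were 0.28 and -0.05. Of all genes tested, 7.22% were higher and 4.82% lower, and these shares among all genes with a match were not computed. The members were listed as ATF4 and amino acid stress genes, so this split is not a test.

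The genes whose centred log2 level over the 6 libraries lay closest to that of *Atf4*, out of 8065 compared, were *Grina*, *Kcnj15*, *Pfdn5*, *Sord* and *Pik3r1*, at a root mean square difference of 0.10 to 0.13 log2 units. Closest to *Asns* were *Vps29*, *Gnpnat1*, *Fads1*, *Ap3m1* and *Abhd6*, at 0.05 to 0.08. None of these 5 passed the threshold, like *Asns* itself, but a change close to that of *Asns* is what they were chosen for.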

How the data were processed

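The deposited files hold 1 raw read count per gene and library, which the authors made by alignment to GRCm39. The aligner, the annotation and the strand setting are not given in the sources used here. Entries that name no gene (13.7% to 14.4% of reads at day 5, 9.12% to 9.74% at day 7) were left out. GENCODE vM39 named 43465 of 47643 IDs (91.2%).

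Genes were kept if 2 or more libraries held at least 1 count, and were compared with edgeR 4.0.16 in R 4.3.3 (TMM, quasi-likelihood F test, two-sided, Benjamini-Hochberg over 15792 genes), after the settings of the study. The threshold was an adjusted p below 0.05 together with a log2 fold change beyond 0.6 in either direction. CPM used the TMM-scaled library size. The members, lists and tests were chosen with earlier results of these data known. Named genes were the members, 20 pathway genes chosen by name, up to 3 called genes per list and direction with the smallest p, and the 5 nearest to *Atf4* and *Asns* (mean of at least 10 CPM, 1 CPM added before log2). The values of 1 gene that this rule names are not reported here.

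Same-numbered libraries come from the same mouse, per the titles. Their deviations from the day mean correlated at 0.14, -0.10 and 0.16 (8172 genes). Floors cover counting error only, and only that of the counts of 0. The day 7 counts set against them were taken as observed.

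The script was tested on simulated counts for day 7 against day 5 (10 draws, 200 changed genes, on average 15152 genes). A limit of 10% on false calls was set first and was exceeded when each gene had its own dispersion: 11.5% of calls were false, against a nominal 5%. With dispersions on the mean trend, on which the script was then accepted, the share was 2.75%. With gene-wise dispersions and the stricter filterByExpr it was 5.01%. The adjusted p-values here may therefore be too small under the filter of the study. Under gene-wise dispersions, 53.0% of changes of log2 size 1 and 98.4% of size 2 were recovered. The changed genes were drawn only from genes above a minimum mean count. The recovery therefore does not cover genes with few counts, such as *Chac1*, *Cbs* and *Stc2*. Each gene was drawn with the same dispersion on both days. The larger spread of day 7 was therefore not simulated, and the false shares under it are not known.

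Alternatives were DESeq2 1.42.0, its size factors, library totals, other filters, the mouse as a block, robust fitting, limma 3.58.1 voom with a weight per day, no minimum fold, glmTreat, and leaving out each library.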

Additional observations from a re-analysis of the deposited data

How the results depend on the processing

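The counts of members past the threshold were 5 to 7 under the 10 alternatives with all libraries and 4 to 7 when 1 library was left out. In the 100 member values of the first kind, the call differed from the reported one 3 times: *Chac1* was lost with DESeq2 and glmTreat and *Atf3* gained with the mouse as a block. With filterByExpr, the calls of the members were 5 higher and 1 lower. This filter kept the nominal false share in simulation, but there both days had the same spread, unlike in the data. With glmTreat, 622 of all genes and 9 of the pathway genes passed. When 1 library was left out, 797 to 2576 of all genes and 9 to 34 of the pathway genes passed. The block gave 2340 genes, 7 members and 32 pathway genes, and among the named genes it changed the call of *Atf3* and *Stc2* only. Scaling by library totals gave 950 higher and 1008 lower genes instead of 1140 and 761, with a median over all genes of -0.10.

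Signs turned only in genes that did not pass the threshold. The log2 fold change of *Ddit4* was -0.090 with library totals, -0.0054 with the mouse as a block and -0.0041 with voom, and that of *Hspa5* was -0.076, -0.00024 and -0.0026. When 1 library was left out, the ranges were -0.26 to 0.014 for *Psat1*, -0.27 to 0.0091 for *Eif2ak1*, -0.039 to 0.72 for *Ppp1r15a*, -0.10 to 0.26 for *Mthfd2*, -0.67 to 0.028 for *Aldh18a1*, -0.14 to 0.081 for *Ddit4* and -0.15 to 0.14 for *Hspa5*. The cause was not tested. The medians of the lists did not move when *Cbs* and *Stc2* were set to their folds against the floor. They could not, because both genes stayed above the median of their list. Depth limits *Chac1*, *Trib3*, *Cbs* and *Stc2*, which had fewer than 10 counts in every day 5 library.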
